A study of Homo sapiens with 9 samples.

Results

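The 10 genes described here carry out classical non-homologous end joining or act in the pathway that runs from 53BP1 to shieldin. They were chosen by name: XRCC5, XRCC6, PRKDC, DCLRE1C, POLM, XRCC4 and LIG4 for end joining, and TP53BP1, RIF1 and SHLD2 for the protection of broken ends. All 10 were found among the 58735 genes of the count table, and all 10 were among the 15232 genes that passed the filter on low counts. The cells were HEYA8, a human ovarian cancer line of wild-type genotype that the labels assign to high-grade serous ovarian cancer. Treatment lasted 24 h, with DMSO, sunitinib or compound 32 and 3 RNA-seq libraries each, and all 9 carry 1 batch day in the labels. Sunitinib is an inhibitor of several receptor tyrosine kinases, and DMSO is the solvent used as the control. Neither the doses nor the relation of compound 32 to sunitinib is given in the labels. The series title poses the question of whether sunitinib lowers DNA repair and so adds to cisplatin; none of these samples is labelled as having received cisplatin.

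A DNA double-strand break can be rejoined directly or copied from an intact sister. In classical end joining, the Ku70 and Ku80 proteins, encoded by XRCC6 and XRCC5, form a ring that threads onto each broken end and recruits the kinase DNA-PKcs, encoded by PRKDC. Artemis, the nuclease encoded by DCLRE1C, trims ends that cannot be joined as they are, DNA polymerase mu, encoded by POLM, fills short gaps, and XRCC4 with DNA ligase IV, encoded by LIG4, seals the break. Beside this machinery, 53BP1 (TP53BP1) binds modified chromatin around the break and recruits RIF1, which brings the shieldin complex. SHLD2 is a subunit of shieldin. Shieldin holds back the nucleases that would otherwise resect the end, and so steers the break towards joining and away from homologous recombination. In cancer cells without BRCA1, the loss of 53BP1 or shieldin is known to restore resection.

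Promoter sequences are shown for RIF1, POLM and DCLRE1C, since among the members in the RefSeq promoter table they gave, in that order, the largest fall with sunitinib, the only rise with sunitinib and the largest fall with compound 32. That table (build GRCh38.p14) matched 7 of the 10 members, and PRKDC, XRCC5 and SHLD2 were not matched. Each sequence ends at the base before the start of the gene in the count table, and is written 5′ to 3′ on the strand of the gene. Exons of other genes were not looked for in it. Capitals mark matches, on either strand, to CCAAT (read as ATTGG on the other strand), to ACGTG (read as CACGT), which is the core bound by hypoxia-inducible factors, and to TTTGAA, the cell cycle homology region.
RIF1, chr2:151409652-151409882, plus strand: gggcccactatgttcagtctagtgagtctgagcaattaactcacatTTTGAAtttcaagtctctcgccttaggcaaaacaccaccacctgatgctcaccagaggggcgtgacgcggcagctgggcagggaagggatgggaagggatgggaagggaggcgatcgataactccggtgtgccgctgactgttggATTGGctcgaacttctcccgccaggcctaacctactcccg
POLM, chr7:44082541-44082780, minus strand: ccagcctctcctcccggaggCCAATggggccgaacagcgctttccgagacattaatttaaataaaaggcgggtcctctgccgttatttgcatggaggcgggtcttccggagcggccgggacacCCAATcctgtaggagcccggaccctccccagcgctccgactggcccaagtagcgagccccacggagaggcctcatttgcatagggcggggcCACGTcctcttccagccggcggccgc
DCLRE1C, chr10:14954433-14954682, minus strand: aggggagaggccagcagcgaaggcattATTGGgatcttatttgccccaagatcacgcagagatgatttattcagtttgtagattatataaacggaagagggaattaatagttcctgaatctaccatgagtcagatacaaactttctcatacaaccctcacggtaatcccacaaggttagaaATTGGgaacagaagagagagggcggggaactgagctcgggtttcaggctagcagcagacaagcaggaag

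Counted from the RefSeq start, the RIF1 promoter held a CCAAT match 59 bases upstream and a TTTGAA match 204 bases upstream. The POLM promoter held CCAAT at 230 and 127 bases and an ACGTG match at 36 bases upstream. The DCLRE1C promoter held CCAAT at 223 and 69 bases upstream. The letters of the E2F site searched, TTTCCCGC, TTTCGCGC, TTTGCCGC or TTTGGCGC on either strand, were in none of the 7 matched member promoters. The windows searched end at the RefSeq start, which can lie inside the gene as the count table gives it. For XRCC6 that start is 41621295, where the gene begins at 41621119 in the count table. For TP53BP1, on the minus strand, it is 43510640 against 43510728. Part of these 2 windows thus lay inside the gene. Among 15843 protein-coding promoters, in windows of 250 bases, 34.5% held CCAAT, 20.8% ACGTG, 10.8% TTTGAA and 3.72% an E2F site. Such matches describe letters and do not show that a factor is bound.

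Library totals ran from 15498101 to 18006171 counts, and the smallest count behind any member value was 154, for DCLRE1C in a compound 32 library. Sunitinib replicate 3 stood apart from the other 8 libraries. Its correlation with the other sunitinib libraries, in log2 CPM (CPM being reads of a gene scaled to a common library size) over all tested genes, was 0.9815 and 0.9811, against 0.9915 to 0.9932 for other pairs within a group. Ribosomal protein genes took 7.01% of its counts and 3.75% to 4.57% elsewhere, and mitochondrial genes 5.36% against 3.42% to 3.92%. Its deviation followed gene length: the median log2 ratio to the mean of the other sunitinib libraries was 0.35 for 840 genes under 2 kb and -0.31 for 807 genes over 12 kb. In the DMSO and compound 32 libraries the same median for genes over 12 kb lay between -0.08 and 0.04. Among the members the ratio was 0.57 for XRCC4 (2676 bases of exon), 0.38 for XRCC5 (5463 bases) and 0.32 for XRCC6 (3288 bases). It was 0.06 for SHLD2 (4242 bases), 0.03 for POLM (4487 bases) and -0.01 for LIG4 (4387 bases). It was -0.17 for DCLRE1C (6326 bases), -0.21 for TP53BP1 (12991 bases), -0.44 for RIF1 (18166 bases) and -0.87 for PRKDC (15417 bases). The members followed length only in part: XRCC5 is longer than SHLD2, POLM and LIG4, and the median for genes of 4 to 8 kb was -0.03. The members' sunitinib results are therefore given with all 9 libraries and again without this one, and those of other genes where the call or direction changed or the size moved by over 1.5 times. The cause of the deviation was not tested.

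**Figure D1:**
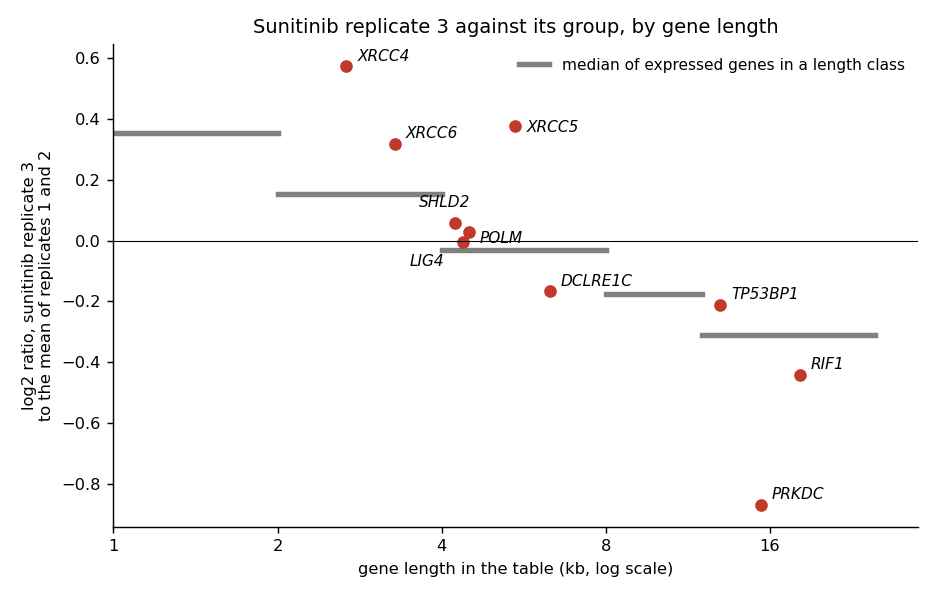
Log2 ratio of sunitinib replicate 3 to the mean of sunitinib replicates 1 and 2 (vertical axis) against gene length in the table in kb (log axis) for the 10 members (red points), with grey bars for the median of expressed genes in each length class. XRCC4, XRCC5 and XRCC6 lie above their class medians, SHLD2, POLM and LIG4 lie near 0, and PRKDC is lowest at -0.87 against a class median of -0.31.

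The labelled cell type was checked against markers. PAX8, a transcription factor of serous ovarian carcinoma, was at 132 CPM on average with DMSO, and the keratin KRT8 at 695 CPM. MUC16, FOLR1, CDH1 and ESR1, which also mark such carcinomas, never passed 0.56 CPM, while the mesenchymal VIM averaged 3631 CPM. Of 13 carcinoma markers, 9 passed the count filter, but 6 of the 13 averaged under 1 CPM over the 9 libraries. MSLN and KRT19 passed the filter at means of only 0.74 and 0.82 CPM with DMSO, and EPCAM at 1.32 CPM. Of 4 leukocyte markers none passed the count filter, with a summed level of at most 1.11 CPM. The summed level of 3 endothelial markers, chiefly CDH5, was 7.39 to 10.2 CPM with DMSO, 13.5 to 17.4 CPM with sunitinib and 5.44 to 6.14 CPM with compound 32, and its part in the members' values was not tested.

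**Figure D2:**
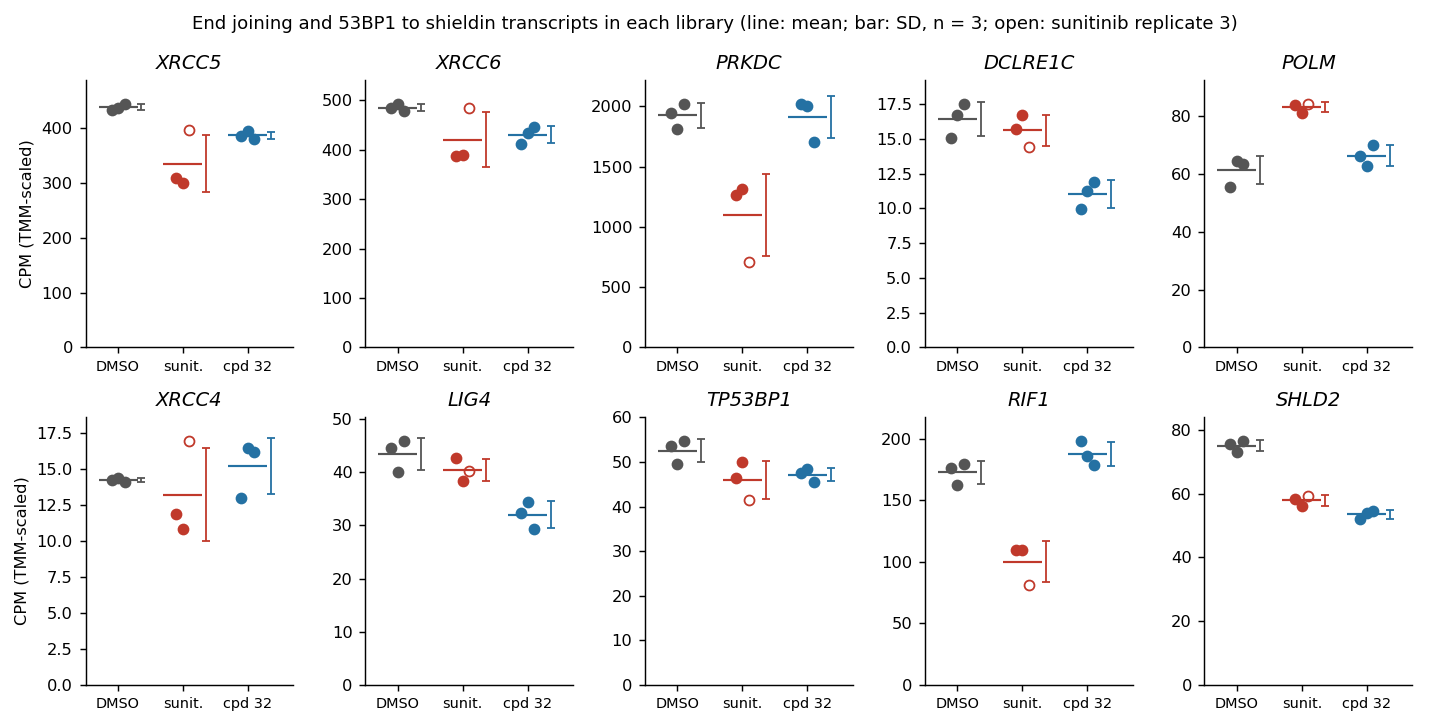
CPM of each member in each library (points), with the mean (line) and SD (bar, n = 3) for DMSO, sunitinib and compound 32; the open point is sunitinib replicate 3. RIF1, PRKDC, XRCC5 and SHLD2 lie below all DMSO libraries with sunitinib, POLM above them, and XRCC5, XRCC6, LIG4, DCLRE1C, TP53BP1 and SHLD2 below them with compound 32.

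Levels between genes were compared as CPM per kb of exon. With DMSO, XRCC6 was highest at 147 ± 2.26 CPM per kb (SD, n = 3), followed by PRKDC at 125 ± 6.87 and XRCC5 at 80.3 ± 0.93 CPM per kb. SHLD2, at 17.7 ± 0.40, and POLM, at 13.7 ± 1.08 CPM per kb, came next, then LIG4 at 9.91 ± 0.69 and RIF1 at 9.49 ± 0.51 CPM per kb, whose levels did not differ beyond their spread. XRCC4, at 5.32 ± 0.06, TP53BP1, at 4.05 ± 0.20, and DCLRE1C, at 2.60 ± 0.20 CPM per kb, were lowest. Per kb of exon, the transcripts of the Ku subunits and of DNA-PKcs were thus the most abundant of the members, and that of Artemis the least abundant.

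Against DMSO, 4 of the 10 members, RIF1, PRKDC, XRCC5 and SHLD2, fell with sunitinib, and POLM rose. Calls rest on edgeR's quasi-likelihood test, with Benjamini-Hochberg adjustment over all tested genes and an adjusted p under 0.05. With all 9 libraries the largest falls were those of PRKDC and RIF1, by about the same share, 43.0% and 42.0% from the fitted fold change. Without sunitinib replicate 3 their log2 fold changes were -0.58 and -0.66, and that of XRCC5 was -0.52. Over all tested genes, edgeR called 19.9% lower and 20.3% higher in this comparison beside the 4 lower and 1 higher member. In CPM the same 4 members lay below all DMSO libraries and POLM above them without overlap, against 25.1% and 25.8% of all tested genes. The members' median log2 fold change was -0.20, and that of all tested genes was 0.02. Without sunitinib replicate 3, 6 members were lower and 1 higher, against 26.3% and 25.1% of all tested genes, and the members' median was -0.32. With upper-quartile factors the split over all genes moved from 3090 higher and 3036 lower to 3952 and 2316, and with library totals alone to 3665 and 2428, while the members' counts stayed 1 higher and 4 lower. In bulk RNA, fewer cells of a type and less RNA per cell cannot be told apart.

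With compound 32, 3 members fell against DMSO, DCLRE1C, SHLD2 and LIG4, and none was called higher by edgeR's test. Of all tested genes, 10.3% were called lower and 12.0% higher. The members' median log2 fold change was -0.16 and that of all tested genes -2.66e-04. Sunitinib replicate 3 is not among the libraries compared here, but shares their gene filter, scaling and estimate of the spread. Without it, 6 members were lower and 1 higher, against 20.5% and 21.6% of all tested genes. The members' fold changes moved little; the standard error of XRCC5, for example, went from 0.09 to 0.03. In CPM, 6 members (XRCC5, XRCC6, LIG4, DCLRE1C, TP53BP1 and SHLD2) had all 3 compound 32 libraries below all 3 DMSO libraries, against 24.4% of all tested genes, and none lay above them, against 24.7%. Biological replication is stated by the submitters for sunitinib and DMSO but not for compound 32. The compound 32 p-values use a spread pooled over the 3 groups, and may not measure biological spread among compound 32 samples. Both comparisons use the same DMSO libraries.

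**Figure D3:**
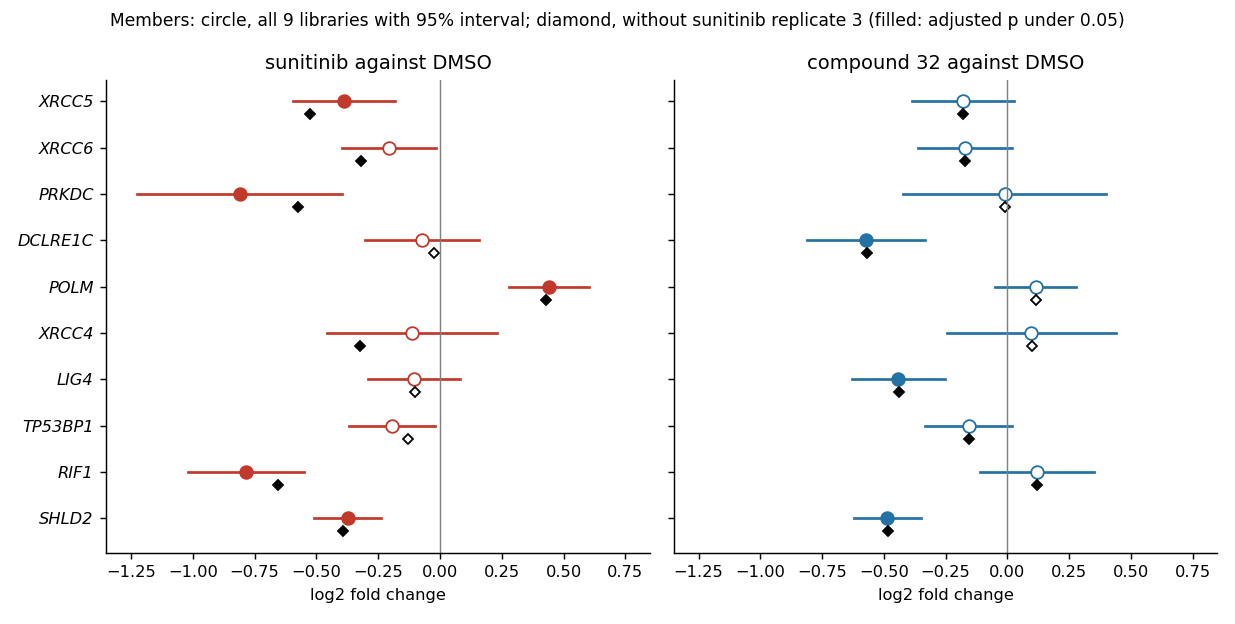
Log2 fold change of each member against DMSO for sunitinib (left) and compound 32 (right), with 95% intervals over all 9 libraries (circles) and the value without sunitinib replicate 3 (diamonds); filled symbols have an edgeR adjusted p under 0.05. With sunitinib PRKDC and RIF1 lie lowest at -0.81 and -0.79 and POLM is at 0.44, while with compound 32 DCLRE1C, SHLD2 and LIG4 lie lowest.

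Of the Ku subunit genes, XRCC5 fell with sunitinib, and XRCC6 did not pass the test with all 9 libraries. XRCC5 (ENSG00000079246, chromosome 2, 216107464 to 216206303, plus strand), the Ku80 gene, stood at 434, 438 and 444 CPM with DMSO, 310.0, 300.7 and 396 CPM with sunitinib, and 386, 395 and 381 CPM with compound 32. Every sunitinib library was below every DMSO library, with replicate 3 the highest of its group, and the compound 32 libraries were also all below DMSO. Sunitinib changed XRCC5 by -0.39 ± 0.09 (SE) on the log2 scale, with an edgeR adjusted p of 0.00692, and by -0.52 without sunitinib replicate 3. With compound 32 it was -0.18 ± 0.09 (edgeR adjusted p = 0.203), and -0.18 with an adjusted p of 1.74e-05 without sunitinib replicate 3.

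XRCC6 (ENSG00000196419, chromosome 22, 41621119 to 41664048, plus strand), the Ku70 gene, stood at 485, 492 and 477 CPM with DMSO, 388, 389 and 484 CPM with sunitinib, and 411, 434 and 446 CPM with compound 32. Sunitinib replicate 3 lay inside the DMSO range and the other sunitinib libraries well below it, so the groups overlapped, while compound 32 and DMSO did not overlap. For XRCC6 the log2 fold change with sunitinib was -0.21 ± 0.09 (edgeR adjusted p = 0.0805), and -0.32 with an adjusted p of 2.89e-10 without replicate 3. With the length trend removed from each library, an alternative chosen after seeing the data, it was -0.28 with an edgeR adjusted p of 0.00524. With compound 32 the value was -0.17 ± 0.09 (edgeR adjusted p = 0.189), and -0.17 with an adjusted p of 4.28e-05 without sunitinib replicate 3. The ratio of XRCC5 to XRCC6 per kb within a library was 0.54 ± 0.01 (SD, n = 3) with DMSO, 0.48 ± 0.01 with sunitinib and 0.54 ± 0.03 with compound 32, so that with sunitinib the Ku80 transcript stood lower against the Ku70 transcript in all 3 libraries than in any DMSO library.

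PRKDC (ENSG00000253729, chromosome 8, 47773108 to 47960183, minus strand) was the most abundant member in CPM. Its libraries stood at 1945, 1810.5 and 2019.5 CPM with DMSO, 1267, 1318 and 707 CPM with sunitinib, and 2018, 2004 and 1708 CPM with compound 32. All sunitinib libraries were below all others, with replicate 3 far below the rest of its group, and compound 32 overlapped DMSO. PRKDC changed by -0.81 ± 0.19 on the log2 scale with sunitinib (edgeR adjusted p = 0.00566), and by -0.58 with an adjusted p of 0.00196 without replicate 3. It was -0.72 with the length trend removed, with an edgeR adjusted p of 9.50e-04. With no filter on low counts the call was lost, at -0.85 with an edgeR adjusted p of 0.0607. With compound 32 the value was -0.01 ± 0.19 (edgeR adjusted p = 0.977). The 95% interval ran from -0.42 to 0.40, so this fit does not exclude a change within that range. Without sunitinib replicate 3 the compound 32 value was -0.01 ± 0.08 (edgeR adjusted p = 0.942).

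The end-processing genes moved apart from each other. DCLRE1C (ENSG00000152457, chromosome 10, 14897359 to 14954432, minus strand), the Artemis gene, stood at 15.0, 16.7 and 17.5 CPM with DMSO, 15.7, 16.7 and 14.4 CPM with sunitinib, and 9.96, 11.3 and 11.9 CPM with compound 32. Every compound 32 library was below every other library, and sunitinib overlapped DMSO. In the edgeR fit its log2 fold change with compound 32 was -0.57 ± 0.11 (edgeR adjusted p = 0.00321), a fall of 32.7%, and it was called in all 20 alternatives run. With sunitinib it was -0.07 ± 0.11 (edgeR adjusted p = 0.612), with a 95% interval from -0.30 to 0.16, and -0.02 without replicate 3 (adjusted p = 0.874).

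POLM (ENSG00000122678, chromosome 7, 44072247 to 44082540, minus strand), the gene of the gap-filling polymerase, stood at 55.7, 64.6 and 63.5 CPM with DMSO, 84.1, 81.3 and 84.3 CPM with sunitinib, and 66.4, 62.7 and 70.0 CPM with compound 32. All 3 sunitinib libraries were above all others, replicate 3 among them, and compound 32 overlapped DMSO. The log2 fold change with sunitinib was 0.44 ± 0.07 (edgeR adjusted p = 7.01e-04), and 0.43 without replicate 3, and it was called in all 20 alternatives. With compound 32 it was 0.11 ± 0.07 (edgeR adjusted p = 0.313).

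The ligase genes did not pass the test with sunitinib when all libraries were used. LIG4 (ENSG00000174405, chromosome 13, 108207439 to 108218368, minus strand), which encodes DNA ligase IV, stood at 44.6, 40.1 and 45.8 CPM with DMSO, 42.6, 38.3 and 40.3 CPM with sunitinib, and 32.3, 34.4 and 29.3 CPM with compound 32. The compound 32 libraries were below all others, and sunitinib overlapped DMSO. The log2 fold change with compound 32 was -0.44 ± 0.09 (edgeR adjusted p = 0.00378), a fall of 26.4%, called in all 20 alternatives. With sunitinib it was -0.10 ± 0.09 (edgeR adjusted p = 0.353), and -0.10 without replicate 3 (adjusted p = 0.265).

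XRCC4 (ENSG00000152422, chromosome 5, 83077498 to 83353787, plus strand), the scaffold that holds the ligase, stood at 14.2, 14.4 and 14.1 CPM with DMSO, 11.9, 10.9 and 16.9 CPM with sunitinib, and 13.0, 16.5 and 16.1 CPM with compound 32. Sunitinib replicate 3 was the highest of all 9 libraries and the other sunitinib libraries the lowest, so no group stood clear of another. XRCC4 had a log2 fold change with sunitinib of -0.11 ± 0.16 (edgeR adjusted p = 0.601), and -0.32 with an adjusted p of 0.0183 without replicate 3. With compound 32 it was 0.10 ± 0.16 (edgeR adjusted p = 0.717).

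In the 53BP1 branch, RIF1 and SHLD2 fell with sunitinib and TP53BP1 did not pass the test. TP53BP1 (ENSG00000067369, chromosome 15, 43403061 to 43510728, minus strand) stood at 53.5, 49.6 and 54.6 CPM with DMSO, 46.3, 49.9 and 41.5 CPM with sunitinib, and 47.5, 48.5 and 45.5 CPM with compound 32. One sunitinib library reached the DMSO range, and the compound 32 libraries lay below it. Its log2 fold change was -0.19 ± 0.08 with sunitinib (edgeR adjusted p = 0.0734), and -0.13 with an adjusted p of 0.0935 without replicate 3; it was called only without sunitinib replicate 2, at -0.26 with an adjusted p of 0.0307. With compound 32 it was -0.16 ± 0.08 (edgeR adjusted p = 0.194), and -0.15 with an adjusted p of 0.0320 without sunitinib replicate 3.

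RIF1 (ENSG00000080345, chromosome 2, 151409883 to 151508013, plus strand), the effector that 53BP1 recruits, stood at 176, 162 and 179 CPM with DMSO, 109, 109.6 and 80.7 CPM with sunitinib, and 198, 186 and 178 CPM with compound 32. The sunitinib libraries were far below all others, with replicate 3 the lowest, and compound 32 overlapped DMSO at the upper end. The log2 fold change with sunitinib was -0.79 ± 0.11 (edgeR adjusted p = 1.63e-04), and -0.66 with an adjusted p of 5.69e-17 without replicate 3, and it was called in all 20 alternatives. With compound 32 it was 0.12 ± 0.11 (edgeR adjusted p = 0.477), and 0.12 with an adjusted p of 0.0183 without sunitinib replicate 3.

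SHLD2 (ENSG00000122376, chromosome 10, 87094161 to 87191468, plus strand) encodes a subunit of shieldin, the complex that RIF1 brings to the break. It was the only member called lower with both compounds when all 9 libraries were fitted. It stood at 75.5, 73.1 and 76.4 CPM with DMSO, 58.2, 56.0 and 59.4 CPM with sunitinib, and 51.9, 54.1 and 54.6 CPM with compound 32. All 6 treated libraries were below all DMSO libraries, and sunitinib replicate 3 lay close to its group. The log2 fold change was -0.37 ± 0.06 with sunitinib (edgeR adjusted p = 5.88e-04) and -0.49 ± 0.06 with compound 32 (edgeR adjusted p = 2.47e-04), and each was called in all 20 alternatives. Without sunitinib replicate 3 the sunitinib value was -0.39 (edgeR adjusted p = 9.26e-08).

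The ratio of RIF1 to TP53BP1 per kb differed between groups by more than the spread within them. It was 2.35, 2.34 and 2.35 with DMSO, 1.69, 1.57 and 1.39 with sunitinib, and 2.98, 2.74 and 2.80 with compound 32. The 3 groups did not overlap: with sunitinib RIF1 transcript stood lower against that of the protein that recruits it, and with compound 32 higher. RIF1 was not called against DMSO with compound 32, and no test was made on the ratio. Both genes are long (18166 and 12991 bases of exon), and the lowest ratio was that of sunitinib replicate 3. Ratios of SHLD2 to TP53BP1, XRCC4 to LIG4 and POLM to POLL were also taken, and each overlapped between sunitinib and DMSO. With compound 32, SHLD2 to TP53BP1 lay below DMSO (3.35 to 3.68 against 4.29 to 4.52). XRCC4 to LIG4 lay above it (0.66 to 0.90 against 0.50 to 0.59), and POLM to POLL overlapped it.

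Compared directly at 24 h, with doses not given, 2 members were higher and 3 lower with compound 32 than with sunitinib by edgeR's test, with p-values adjusted over all tested genes. RIF1 was higher with compound 32 by 0.91 ± 0.11 on the log2 scale (adjusted p = 3.55e-05) and PRKDC by 0.80 ± 0.19 (adjusted p = 0.00468). DCLRE1C was lower by -0.50 ± 0.11 (adjusted p = 0.00263), LIG4 by -0.34 ± 0.09 (adjusted p = 0.00681) and POLM by -0.33 ± 0.07 (adjusted p = 0.00345). Of all tested genes, 24.1% were called higher and 25.2% lower. In CPM the same 2 members were higher without overlap, against 27.8% of all tested genes, and 4 were lower, SHLD2 with the 3 called, against 29.0%.

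For the other 5 members the difference between the compounds was not called. Its 95% interval ran from -0.25 to 0.02 for SHLD2, from -0.14 to 0.21 for TP53BP1, from -0.16 to 0.22 for XRCC6, from -0.13 to 0.55 for XRCC4 and from 2.44e-04 to 0.41 for XRCC5. Without sunitinib replicate 3, 5 members were higher and 3 lower, against 29.7% and 29.0% of all tested genes. XRCC5 was then called at 0.35 (edgeR adjusted p = 2.04e-11), XRCC4 at 0.42 (adjusted p = 0.00162) and XRCC6 at 0.15 (adjusted p = 6.61e-04), and PRKDC was at 0.57. With no filter on low counts PRKDC lost its call, at an edgeR adjusted p of 0.0555, and XRCC5 gained one, at 0.24 with an adjusted p of 0.0170. SHLD2 was called lower with compound 32 with upper-quartile factors, at -0.20 (edgeR adjusted p = 0.0188), and with library totals, at -0.18 (adjusted p = 0.0361). With these scalings the split over all genes moved from 3664 higher and 3834 lower to 3008 and 4712, and to 3090 and 4470.

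Of the members, 6 start within 1 kb of a tested gene on the other strand, 60.0%, against 20.5% of 12471 tested protein-coding genes. PRKDC and MCM4, a subunit of the replicative helicase, start 2 bases apart. MCM4 fell by 1.90 ± 0.06 on the log2 scale with sunitinib, from a mean of 591 to 158 CPM (edgeR adjusted p = 1.15e-08), and rose by 0.50 ± 0.06 with compound 32 to 833 CPM (adjusted p = 1.87e-04). With sunitinib PRKDC was lower together with its neighbour, and with compound 32 MCM4 was called higher where PRKDC was not.

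LIG4 and ABHD13 start 11 bases apart, and both were lower with compound 32: ABHD13 changed by -0.29 ± 0.09 (edgeR adjusted p = 0.0401). XRCC6 and DESI1 start 23 bases apart, and DESI1 changed by 0.24 ± 0.07 with compound 32 (edgeR adjusted p = 0.0277), where XRCC6 was at -0.17. TP53BP1 starts 230 bases from MAP1A, which encodes a microtubule-associated protein. MAP1A changed by -1.01 ± 0.15 with sunitinib and 0.81 ± 0.13 with compound 32. TMEM167A, 365 bases from XRCC4, and GLUD1, 705 bases from SHLD2, were not called with either compound in the fit of all 9 libraries. In that fit, a member and its neighbour were called in the same direction only for PRKDC with MCM4 under sunitinib and for LIG4 with ABHD13 under compound 32. Without sunitinib replicate 3, TMEM167A was also lower with sunitinib, at -0.21 (edgeR adjusted p = 8.86e-04), beside XRCC4 at -0.32.

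**Figure D4:**
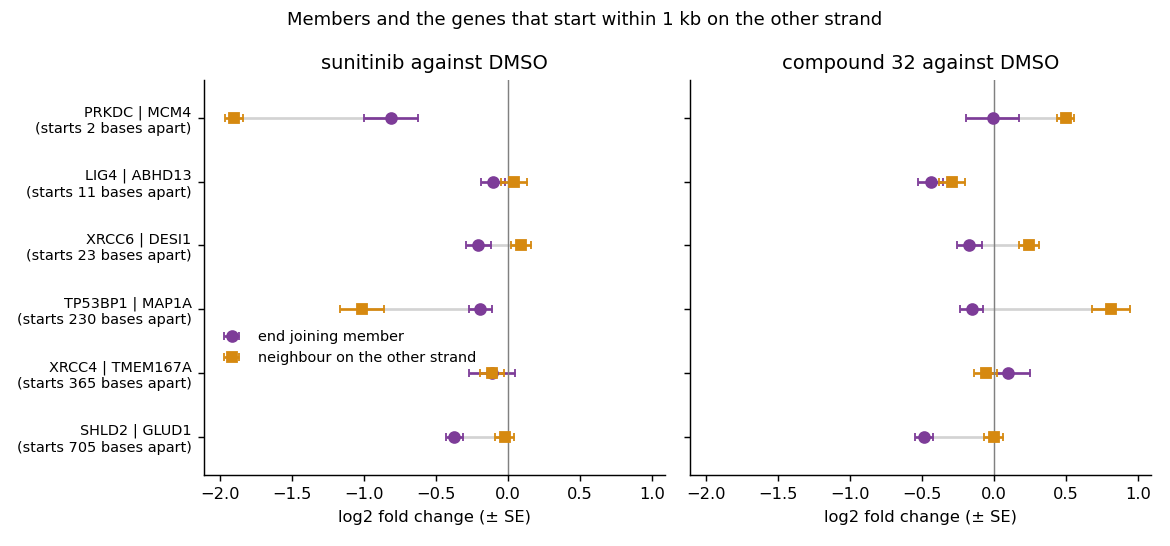
Log2 fold change (± SE) against DMSO of the 6 members (purple circles) and of the gene that starts within 1 kb on the other strand (orange squares), for sunitinib (left) and compound 32 (right). MCM4 lies at -1.90 and 0.50 where PRKDC lies at -0.81 and -0.01, while LIG4 and ABHD13 are both below 0 with compound 32.

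Some members share exon bases with genes on the other strand, and no source used here gives the strand setting of the counting, so reads there cannot be told apart. TP53BP1 shares 3732 of its 12991 exon bases (28.7%) with TUBGCP4, which was itself lower with sunitinib by -0.63 ± 0.11 (edgeR adjusted p = 9.62e-04), and was at -0.29 with compound 32 (adjusted p = 0.0819, and 0.00659 without sunitinib replicate 3). SHLD2 shares 464 bases (10.9%) with GLUD1, which was at -0.02 ± 0.07 with sunitinib (edgeR adjusted p = 0.798) and was not called with compound 32 (adjusted p = 0.983). DCLRE1C shares 159 bases (2.51%) with SUV39H2, and RIF1 166 bases (0.914%) with NEB. SUV39H2, a histone methyltransferase gene, was at -0.81 with sunitinib and 0.10 with compound 32, and NEB, which encodes the muscle protein nebulin, at -1.30 and 0.86. Of the pseudogene copies, SHLD2P1 averaged 1.27 CPM, and those of XRCC6 and DCLRE1C averaged at most 0.04 CPM; the handling of reads that map to several places is not stated either.

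The protein-coding genes whose log2 CPM followed that of PRKDC most closely over the 9 libraries, among 10164 genes, were MYCBP2 (Pearson r = 0.997) and IL6ST (r = 0.994). With sunitinib replicate 3 left out, the r values were 0.990 and 0.980, and the genes ranked 2 and 20. MYCBP2 encodes a ubiquitin ligase and IL6ST the shared receptor chain of the interleukin-6 family. The exons of these genes span 15945 and 9292 bases, all the points share the same libraries, and the r values are a description.

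The rest of the pathway was read from 4 further lists of 74 genes in all, of which 71 were tested. Other classical end joining factors mostly did not pass the test: with sunitinib 3 of 11 tested genes rose and 1 fell, beside 20.3% and 19.9% of all tested genes, and the median was 0.04 on the log2 scale. APLF, which helps to hold XRCC4 and Ku at the break, rose by 1.18 ± 0.23, from 2.03 to 4.65 CPM (edgeR adjusted p = 0.00157). The gap-filling polymerase genes POLB and POLL rose by 0.77 and 0.42, with POLB at 0.46 without sunitinib replicate 3 (edgeR adjusted p = 0.00307). POLB is counted in this list but acts chiefly in base excision repair. TDP1, which cleans blocked ends, was at -0.36 with an edgeR adjusted p of 0.0311. With compound 32 only TDP1 was called, at -0.44 with an edgeR adjusted p of 0.0199, and the list's median was -0.09; that call was lost whenever any 1 DMSO or compound 32 library was left out. Leaving out sunitinib replicate 3 gave 4 higher and 3 lower genes of the list with sunitinib, beside 25.1% and 26.3% of all tested genes, and 2 higher and 1 lower with compound 32, beside 21.6% and 20.5%. PAXX, which encodes a Ku-binding relative of XRCC4, APLF and ERCC6L2 were at 0.25, -0.40 and 0.21 with compound 32 and were not called; PAXX and ERCC6L2 were called higher without sunitinib replicate 3 (edgeR adjusted p = 0.00528 and 0.0145). NHEJ1, which encodes the ligation factor XLF, stayed at or below 0.32 CPM and was not tested; 65.4% of its exon bases are shared with AC068946.1 on the same strand, itself at most 0.39 CPM. DNTT, the lymphoid end-joining polymerase gene, had no count in any library.

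Among 24 tested genes of the rest of the 53BP1 to shieldin branch, 11 fell and 2 rose with sunitinib, beside 19.9% and 20.3% of all tested genes, and the median was -0.34 on the log2 scale. The falls included PRIM1 at -1.40, POLA1 at -1.04 and PRIM2 at -0.71, subunits of the polymerase alpha and primase complex that fills in ends held by shieldin and that also starts each strand in DNA replication. MDC1, an adaptor that binds marked chromatin at breaks, fell by 0.72 on the log2 scale. STN1, a subunit of the CST complex that shieldin recruits, rose by 0.39 and KMT5B by 0.22, the latter with an edgeR adjusted p of 0.0476. The branch had 14 lower and 4 higher genes when sunitinib replicate 3 was left out, beside 26.3% and 25.1% of all tested genes. The other shieldin subunits, named here after their values were seen because they join SHLD2 in the complex, were not called in the fit of all 9 libraries: SHLD1 averaged 1.35 CPM, SHLD3 2.34 CPM and MAD2L2 26.7 CPM with DMSO. With sunitinib their log2 fold changes were -0.36, 0.26 and 0.04, and with compound 32 -0.19, 0.58 and 0.16. Leaving out sunitinib replicate 3 turned SHLD3 with sunitinib to -0.11 (edgeR adjusted p = 0.761) and made it called with compound 32, at 0.59 (adjusted p = 0.0270).

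With compound 32, 3 genes of that branch rose, POLA2 at 0.70, KMT5C at 0.53 and POLA1 at 0.38, and 3 fell, H2AFX at -0.69, MDC1 at -0.28 and KMT5B at -0.26, beside 12.0% higher and 10.3% lower over all tested genes. H2AFX also fell with sunitinib, at -0.88 (edgeR adjusted p = 5.81e-05), and at -0.75 without sunitinib replicate 3. H2AFX encodes the histone variant H2AX, which is phosphorylated around breaks, and KMT5B and KMT5C encode enzymes that write the histone mark 53BP1 binds. The counts in this branch were 7 higher and 5 lower without sunitinib replicate 3, beside 21.6% and 20.5%. STN1, KMT5B, NBN and, for compound 32, MDC1 and, for sunitinib, H2AFX lie outside the naming rule and were named after their values were seen.

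End resection and theta-mediated joining act on ends that are not joined directly. With sunitinib 10 of 16 tested genes fell and none was called higher, beside 19.9% and 20.3% of all tested genes, with a median of -0.53. The falls included the nuclease genes EXO1 at -1.86, FEN1 at -1.74 and DNA2 at -1.39, the helicase gene BLM at -1.38, BARD1 at -1.55 and BRCA1 at -1.01, which encode partners that promote resection, and POLQ at -1.41, which encodes polymerase theta. With compound 32, 7 genes of this list rose and 2 fell, beside 12.0% and 10.3% of all tested genes, with a median of 0.14: EXO1 rose by 0.99, DNA2 by 0.67 and FEN1 by 0.56, while LIG3, the ligase gene of theta-mediated joining, fell by 0.94 on the log2 scale and NBN was at -0.22 with an edgeR adjusted p of 0.0431. No member of the 10 fell as far with sunitinib as EXO1, FEN1, BARD1 or POLQ did. Leaving out sunitinib replicate 3 gave 12 lower and 1 higher genes of the list with sunitinib, beside 26.3% and 25.1% of all tested genes, and 9 higher and 3 lower with compound 32, beside 21.6% and 20.5%.

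Cell division genes also changed. All 20 genes of a reference list for DNA replication and mitosis fell with sunitinib, by a median of -1.24 on the log2 scale, beside 19.9% of all tested genes. With compound 32, 9 rose and 7 fell, beside 12.0% and 10.3% of all tested genes, with a median of 0.25. Without sunitinib replicate 3 these counts were 13 and 7, beside 21.6% and 20.5%. RRM2, which encodes a subunit of ribonucleotide reductase, rose by 1.11 with compound 32. The mitotic genes PLK1, CCNB1 and AURKA were at -1.99, -1.97 and -1.70. Many resection and primase genes are themselves expressed most in dividing cells, and the part of this shift in the members' values was not tested.

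**Figure D5:**
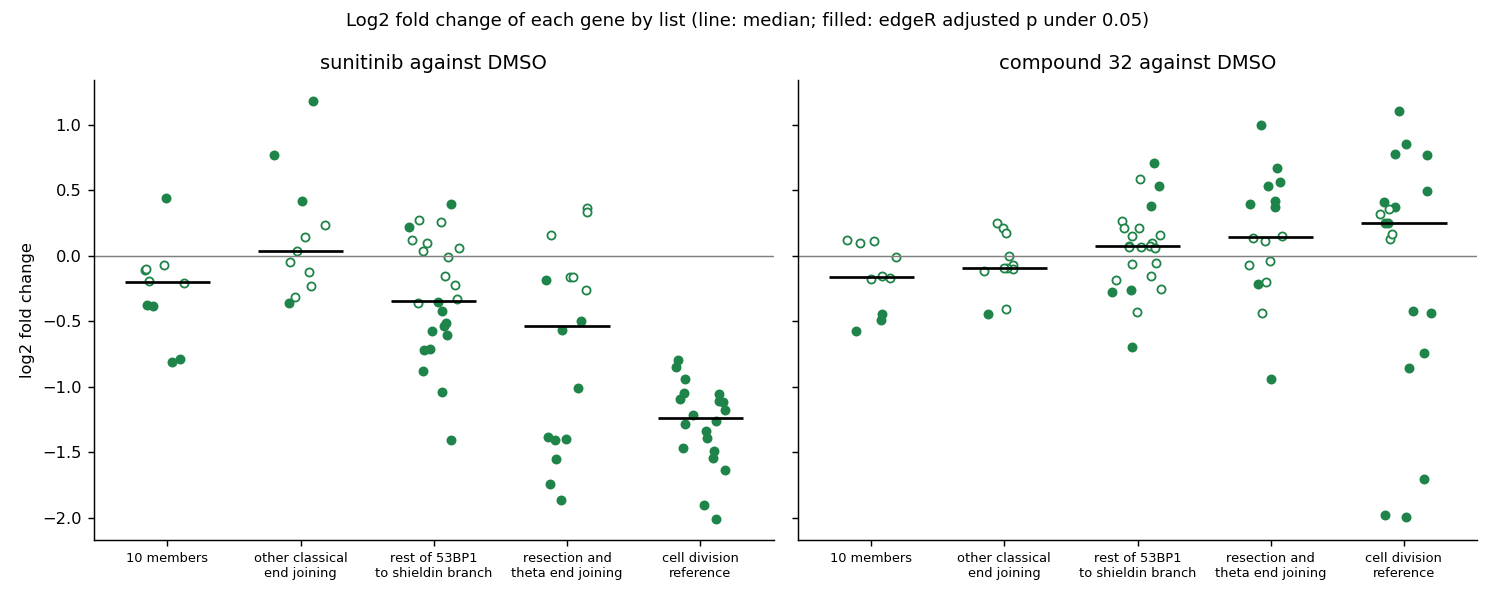
Log2 fold change against DMSO of each gene (points; filled, edgeR adjusted p under 0.05) in the 10 members and 4 further lists, with the median of each list (line), for sunitinib (left) and compound 32 (right). With sunitinib the medians run from 0.04 for other classical end joining genes to -1.24 for cell division genes, and with compound 32 they lie between -0.16 and 0.25.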

How the data were processed

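Per the labels' protocols, HEYA8 RNA was extracted with TRIzol, enriched on oligo(dT) beads and reverse-transcribed from random hexamers. The authors deposited 1 table of raw counts of reads per gene for 58735 genes in 9 libraries. The submitters' processing notes name fastp, HISAT2 2.0.5, featureCounts, DESeq2, edgeR and the builds mm10 and hg38, with no roles. All 58735 gene IDs and spans matched GENCODE release 29 on the human build. The 9 columns were matched to samples by name.

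Genes were kept with filterByExpr (15232), scaled with TMM factors (0.983 to 1.051) and tested with edgeR 4.0.16 in R 4.3.3, by the quasi-likelihood F test with robust estimation over all 9 libraries (6 residual degrees of freedom). Calls use a Benjamini-Hochberg adjusted p under 0.05 over all tested genes. CPM values use the TMM factors, and the ± of a fold change is an SE from the same test. Intervals of 95% use the same fit. Exon lengths are the table's. The length ratios use genes with a mean of at least 5 CPM and add 0.5 CPM before the logarithm.

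The members and lists were chosen with earlier results of these data known. Named beside the members were, per list and treatment, the 4 genes of smallest p and called genes with a log2 change of at least 1, neighbours, pseudogene copies and the 3 genes most like PRKDC, of which 1 is not reported here. The test was checked on simulated counts drawn separately per library, with no length trend and no deviating library. That check therefore does not cover a deviation like that of sunitinib replicate 3. Alternatives were other scalings, filters and tools (DESeq2 1.42.0, limma 3.58.1), a replicate block, the 6 libraries compared, each library left out, an adjusted p under 0.01 and, chosen after seeing the data, a length trend removed per library. Same-numbered libraries did not deviate together, so numbers were not used as pairs.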

Additional observations from a re-analysis of the deposited data

How the results depend on the processing

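Leaving out 1 library at a time gave 4 to 6 lower members with sunitinib, 3 to 6 with compound 32 and 3 to 3 with compound 32 against sunitinib, and 1 to 1, 0 to 1 and 2 to 5 higher members. Over all genes the same settings gave 2276 to 3908 higher and 2462 to 4096 lower with sunitinib, 1168 to 3359 and 968 to 3189 with compound 32, and 3183 to 4620 and 3168 to 4519 with compound 32 against sunitinib. The upper ends for compound 32 come from the fit without sunitinib replicate 3. With only the 6 libraries compared, compound 32 gave 3258 higher and 3114 lower genes, and 1 higher and 6 lower members. At an adjusted p under 0.01 it gave 977 and 738 genes, and sunitinib 1857 higher genes.

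Among the 10 members, changes of sign concerned values that were not called in the fit of all 9 libraries. In compound 32 against sunitinib, upper-quartile factors gave -0.054 for XRCC6 and -0.048 for TP53BP1, library totals -0.026 and -0.027, and the length trend removed -0.064 for TP53BP1. DCLRE1C with sunitinib was at 0.0093 with upper-quartile factors. Leaving out 1 library gave -0.023 to 0.15 for XRCC6 and -0.024 to 0.10 for TP53BP1 in compound 32 against sunitinib, -0.058 to 0.061 for PRKDC with compound 32, and -0.32 to 0.0037 for XRCC4 with sunitinib. The causes were not tested.

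Correlations of deviations between same-numbered libraries ran from -0.0769 to 0.0609, and between differently numbered ones from -0.0609 to 0.0882. With 3 libraries per group this shows no shared deviation, but cannot decide whether the samples were paired. The column names of the sunitinib and compound 32 libraries share the letters A, B and C. With the replicate number as a block, members called higher and lower stayed 1 and 4, 0 and 3, and 2 and 3, and genes were 2846 and 2912, 1559 and 1319, and 3535 and 3639, in the 3 comparisons.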
